A study of Mus musculus with 3 samples.

Results

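The genes described are 10 genes of glucose uptake and glycolysis in the mouse, found by their exact symbols among the 27998 genes of 3 scRNA-Seq libraries. They are the glucose transporters *Slc2a1* and *Slc2a3*, the hexokinases *Hk2* and *Hk3*, the phosphofructokinase subunit *Pfkl* with the regulatory enzyme *Pfkfb3*, the lower-pathway enzymes *Aldoa*, *Pgk1* and *Pkm*, and the lactate dehydrogenase subunit *Ldha*. All 10 were present in each library. Levels were followed across classes of cells named by their markers, and across stages of neutrophil maturation.

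The libraries were made from C57BL/6J males aged 10 weeks, 3 days after burn/tenotomy, in which a burn on the back is joined with a cut through the Achilles tendon and bone later forms at the cut tendon (heterotopic ossification, HO). Unsorted cells of bone marrow, of blood and of the injured tendon (HO site) gave 1 library each, so that all cells came from injured mice and no library came from uninjured ones. Marrow was flushed and its red cells lysed, blood was spun on a Ficoll gradient for its mononucleated layer before lysis, and only the tendon site was digested with enzymes at 37C. How many mice went into a library is not stated in the labels or methods. Site, preparation and library therefore cannot be told apart, and no test was possible between sites. Values are UMIs (counted molecules) of a gene per 1000000 UMIs of a group of cells (CPM), with exact Poisson 95% intervals. Ratios are on the log2 scale with exact binomial 95% intervals, and shares have exact Clopper-Pearson 95% intervals. All these intervals cover counting error only and not the spread between cells, animals or libraries. A gene was counted as past 2-fold at a log2 ratio above 1 or below -1 with at least 100 UMIs over both groups.

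Glycolysis takes glucose to pyruvate in the cytosol and yields ATP without oxygen. Glucose enters through facilitative transporters, is held in the cell by hexokinase, is committed to the pathway by phosphofructokinase, and leaves as lactate when lactate dehydrogenase reduces pyruvate. Neutrophils have few mitochondria and are known to rely on glycolysis for much of their ATP, and the pentose phosphate branch supplies the NADPH for their oxidative burst. Neutrophils mature in the marrow from cells that make azurophil granule enzymes, through cells that divide and make specific granule proteins, to mature cells that enter the blood.

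The libraries held 1855 marrow, 2241 blood and 5629 tendon cell barcodes with 49580625, 22542581 and 90621052 UMIs, of which 1813, 2146 and 4780 cells were used. At most 6 barcodes were shared between any pair of libraries. Neutrophil-like cells numbered 1292 in marrow, 398 in blood and 560 in tendon, with median depths of 24153, 8615 and 3492 UMIs. By granule and cell cycle genes, the marrow cells were split into an azurophil gate (238 cells), a cycling gate (247), an immature gate of granule-protein cells (601) and a mature gate (200), while 360 blood and 532 tendon cells fell in the mature gate. The azurophil gate was set first, and its cells held a median of 6 UMIs of the cycling list, above the cycling threshold of 4. These gates are ranges and not cell types: 406 of 1286 marrow cells lay within a factor of 2 of the cycling threshold, 132 of the granule threshold and 55 of the azurophil threshold. *Cxcr2*, a chemokine receptor of mature neutrophils that was not used by the gates, was at 16.4, 69.5, 414 and 1569 CPM in the 4 marrow gates in that order, 1686 CPM in the blood mature gate and 993 CPM in the tendon mature gate. The neutrophil marker list took 44.1%, 37.1% and 21.5% of the UMIs in the mature gates of marrow, blood and tendon. The monocyte/macrophage list took 0.661%, 0.473% and 0.235%. The falling share of neutrophil markers moves with each result between sites in the mature gate, and its part in those results was not tested.

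Promoter sequence is shown for *Ldha*, *Pgk1* and *Aldoa*, which were higher together in a tendon cell cluster described below and whose windows lie outside every annotated exon. The windows are read 5′ to 3′ on the gene's strand from RefSeq (GRCm38.p6). Capitals mark the letters ACGTG or, on the other strand, CACGT, a form of the core of the hypoxia response element. The form GCGTG was not marked or counted. The *Ldha* window (chr7:46845730-46845803, + strand) lies in an intron of a longer *Ldha* transcript, just upstream of the RefSeq start. The *Pgk1* window (chrX:106186929-106187018, + strand) lies upstream of the gene. The *Aldoa* window (chr7:126799331-126799420, − strand) lies in an intron of longer *Aldoa* transcripts and of *Fam57b* on the other strand.
Ldha: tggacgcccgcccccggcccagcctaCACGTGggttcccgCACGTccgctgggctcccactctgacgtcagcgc
Pgk1: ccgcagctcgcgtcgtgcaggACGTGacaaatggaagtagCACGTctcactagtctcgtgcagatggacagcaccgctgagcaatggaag
Aldoa: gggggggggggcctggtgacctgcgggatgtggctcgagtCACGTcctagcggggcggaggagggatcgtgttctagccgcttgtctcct

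The letters occurred in the 250 bases upstream of the start in 10 of the 14 RefSeq windows of the members (71.4%) and in 8 of the 9 members with an entry. Across all 32851 promoters of the same length the share was 16.6%. Among promoters with at least 10 CG dinucleotides it was 24.4%, beside 9 of 11 member windows (81.8%). In both member counts, overlapping windows of *Aldoa* hold the same motif and were counted separately. The 2 motifs of *Ldha* in capitals above (CACGTG reads the same on both strands, so both letter sets overlap there) start 48 and 34 bases before the start site, and another CACGTG starts at 145 bases. In *Slc2a1* the motif begins 36 bases before the start. The *Pfkl* window held neither ACGTG nor CACGT, though it held the uncounted form GCGTG. A match of letters is a description of the sequence and not a site of binding.

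The glucose transporters gave the widest contrasts of the 10 genes along neutrophil maturation (the plot of levels by gate). *Slc2a3* (ENSMUSG00000003153, chr6:122727809-122801640, − strand) encodes GLUT3, a high-affinity glucose transporter. Its level was 13.6 CPM (11.5 to 15.9) in the azurophil gate, 69.4 CPM in the cycling gate, 209 CPM (201 to 217) in the immature gate and 357 CPM (333 to 383) in the mature gate of marrow. None of these intervals overlapped, and the immature gate was 15.3-fold above the azurophil gate (log2 ratio 3.94, 3.71 to 4.18). The blood mature gate was at 319 CPM (299 to 339), close to the marrow mature gate (log2 ratio -0.16, -0.30 to -0.03). The tendon mature gate was at 150 CPM (134 to 167), lower than blood past 2-fold (log2 ratio -1.09, -1.27 to -0.90).

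*Slc2a1* (ENSMUSG00000028645, chr4:119108711-119137983, + strand) encodes GLUT1, the broadly used glucose transporter. It stayed low through the marrow gates that precede maturity, at 6.28 CPM (4.90 to 7.92), 2.74 CPM (1.78 to 4.05) and 9.13 CPM (7.55 to 10.9). The marrow mature gate stood at 33.7 CPM (26.5 to 42.2), past 2-fold above the immature gate (log2 ratio 1.88, 1.45 to 2.31). Blood mature cells were at 57.7 CPM (49.6 to 66.7) and tendon mature cells at 113 CPM (98.9 to 128), so the intervals of the 3 mature gates did not overlap. The step from marrow to blood had a log2 ratio of 0.78 (0.38 to 1.18) and that from blood to tendon 0.96 (0.68 to 1.25), each short of 2-fold. Thus the transporter genes went opposite ways between blood and tendon.

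**Figure D1:**
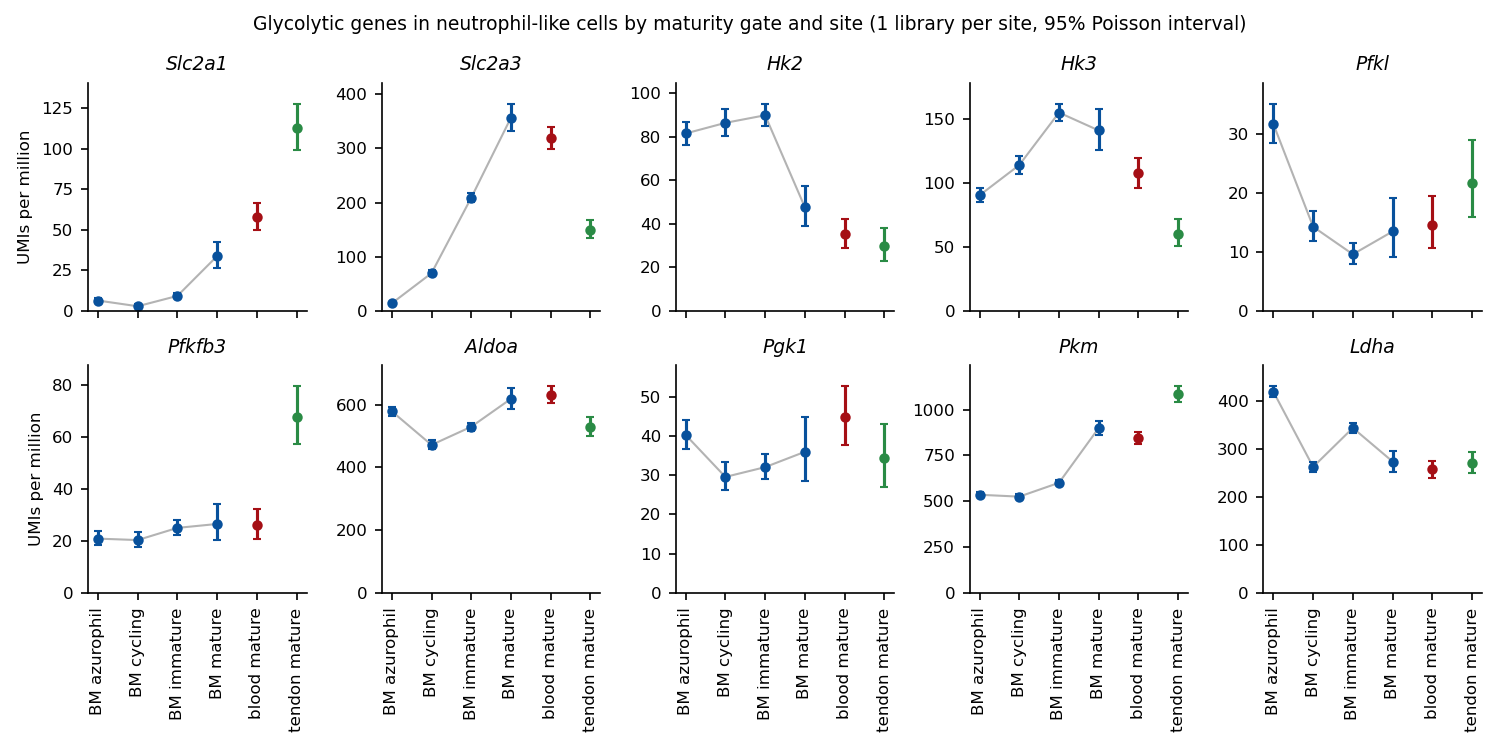
Level of each gene (UMIs per 1000000, linear axis from 0, error bars 95% Poisson intervals) in the 4 gates of marrow neutrophil-like cells, joined by a line, and in the mature gates of blood and tendon. *Slc2a3* is highest in the marrow mature gate at 357 CPM and *Slc2a1* in the tendon mature gate at 113 CPM, while *Aldoa* lies between 471 and 631 CPM throughout.

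As a share of the UMIs of both transporters, followed between groups and not as a measure of which protein is more abundant, *Slc2a3* took 68.4%, 96.2%, 95.8% and 91.4% in the marrow gates in order of maturity. It took 84.7% (82.5 to 86.7) in blood and 57.1% (53.0 to 61.3) in tendon mature cells (the plot of pair shares). Monocyte/macrophage-like cells lay at 9.26% in marrow, 15.5% in blood and 7.45% in tendon. Among blood lymphocytes the share was 59.0% in T-like, 72.1% in NK-like and 48.1% in B-like cells. Keratinocyte-like cells were at 0.748%.

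The hexokinases are the enzymes that phosphorylate glucose. *Hk2* (ENSMUSG00000000628, chr6:82725025-82774454, − strand) encodes the inducible form that binds mitochondria, and *Hk3* (ENSMUSG00000025877, chr13:55005985-55021385, − strand) encodes a form that lacks the mitochondrial binding sequence. *Hk2* was at 81.5, 86.4 and 89.9 CPM in the azurophil, cycling and immature gates and at 47.6 CPM (39.0 to 57.6) in the mature gate of marrow. The log2 ratio of mature to immature was -0.92 (-1.22 to -0.63), just short of 2-fold, and it crossed to between -1.01 and -1.08 under 4 other settings. Blood mature cells held 35.2 CPM (28.9 to 42.4) and tendon mature cells 29.6 CPM (22.8 to 37.9) of *Hk2*, and the interval of their ratio included 0.

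*Hk3* rose through the marrow gates from 90.3 CPM in the azurophil gate to 114 CPM in the cycling and 155 CPM (148 to 162) in the immature gate, the last with a log2 ratio of 0.78 (0.67 to 0.89) to the first. That ratio passed 2-fold when totals left out the 50 most abundant and the mitochondrial genes. Among mature gates, marrow was highest at 141 CPM (126 to 157), blood next at 107 CPM (96.3 to 120) and tendon lowest at 60.2 CPM (50.3 to 71.5), without overlap of their intervals. Tendon was lower than blood within 2-fold (log2 ratio -0.84, -1.14 to -0.54). *Hk3* made up 52.5%, 56.9%, 63.3% and 74.8% of the *Hk2* and *Hk3* UMIs in the marrow gates, 75.3% in blood and 67.0% (59.9 to 73.6) in tendon mature cells. *Hk1*, the housekeeping hexokinase, was not a member. Beside it *Hk2* took 58.2%, 58.1% and 42.1% (34.2 to 50.4) of the pair's UMIs in the mature gates of marrow, blood and tendon.

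**Figure D2:**
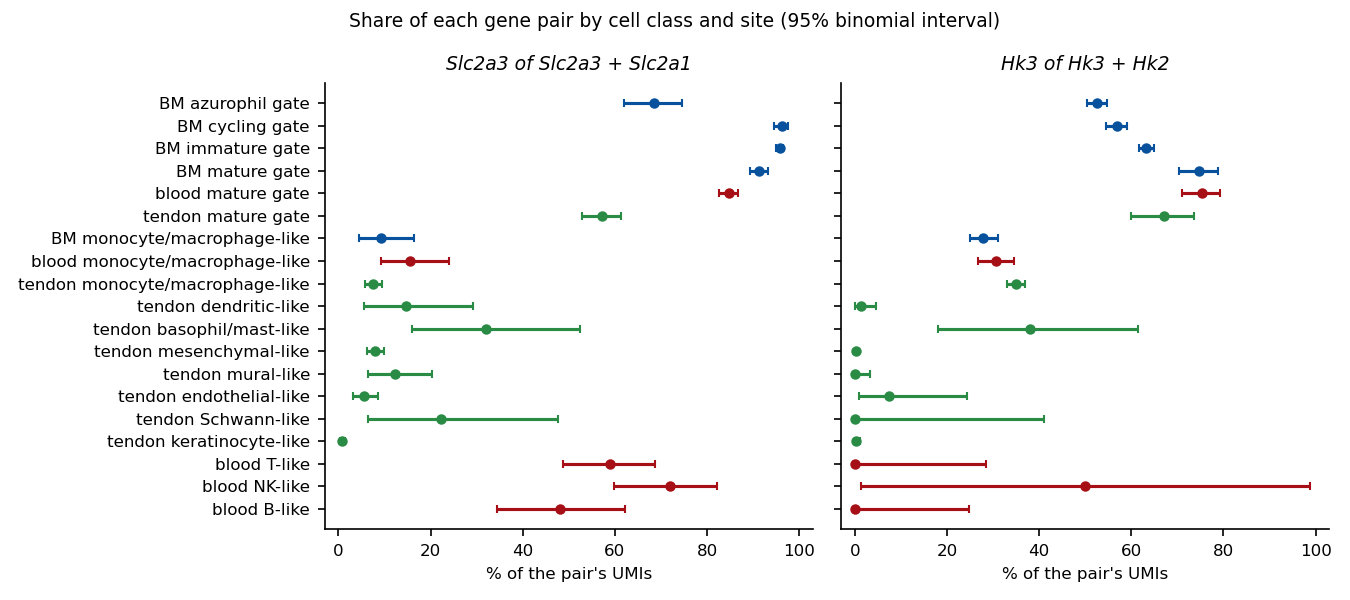
Share of the UMIs of *Slc2a3* and *Slc2a1* that came from *Slc2a3* (left) and of *Hk3* and *Hk2* that came from *Hk3* (right), as % with 95% binomial intervals, in the groups of cells named by class and site. Neutrophil-like gates sit at 57.1% or more for *Slc2a3*, and monocyte/macrophage-like cells of the 3 sites at 15.5% or less.

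At the phosphofructokinase step, *Pfkl* (ENSMUSG00000020277, chr10:77986947-78010083, − strand) encodes the liver-type subunit of the enzyme. *Pfkfb3* (ENSMUSG00000026773, chr2:11471433-11554077, − strand) encodes the enzyme that makes the sugar bisphosphate by which phosphofructokinase is activated most strongly. *Pfkl* fell from 31.7 CPM (28.5 to 35.2) in the azurophil gate to 14.3 CPM in the cycling gate and 9.59 CPM (7.98 to 11.4) in the immature gate. The immature to azurophil ratio was past 2-fold (log2 ratio -1.73, -2.03 to -1.43) and became -0.81 when totals left out the 50 most abundant and the mitochondrial genes. Among mature gates the levels were 13.5 CPM (9.09 to 19.2) for marrow, 14.6 CPM (10.7 to 19.4) for blood and 21.8 CPM (16.0 to 29.0) for tendon with overlapping intervals, and *Pfkl* missed the minimum for the tendon to blood count with 93 UMIs. Its share beside *Pfkp*, the platelet-type subunit, was 42.9% in marrow, 40.0% in blood and 18.4% (13.9 to 23.7) in tendon mature cells.

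*Pfkfb3* was level along the marrow gates, from 20.9 CPM in the azurophil gate to 26.5 CPM (20.2 to 34.2) in the mature gate. Blood mature cells matched this at 26.0 CPM (20.7 to 32.3). Tendon mature cells held 67.6 CPM (57.1 to 79.5), above all these intervals and past 2-fold over blood (log2 ratio 1.38, 0.98 to 1.79). *Pfkfb3* and *Slc2a1* were the 2 members that stood higher in tendon than blood by the largest ratios.

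The lower pathway changed little by comparison. *Aldoa* (ENSMUSG00000030695, chr7:126795234-126800751, − strand) encodes the aldolase that splits the six-carbon sugar. It was at 579, 471, 529 and 618 CPM in the marrow gates, and mature cells of blood held 631 CPM (604 to 659) and those of tendon 530 CPM (500 to 562). *Pgk1* (ENSMUSG00000062070, chrX:106187100-106203699, + strand) encodes phosphoglycerate kinase, the first ATP-yielding enzyme of the pathway. Its marrow levels were 40.2, 29.5, 32.0 and 35.9 CPM. Mature cells of blood held 44.7 CPM (37.6 to 52.7) and those of tendon 34.3 CPM (26.9 to 43.0), and the intervals of the 3 mature gates overlapped.

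*Pkm* (ENSMUSG00000032294, chr9:59656368-59679375, + strand) encodes the pyruvate kinase of most tissues, whose splice forms are not separated by these counts. Marrow gates held 535, 525, 601 and 899 CPM (861 to 940 for the mature gate), blood mature cells 842 CPM (811 to 875) and tendon mature cells 1084 CPM (1041 to 1129). The tendon level was above both other mature gates, with a log2 ratio to blood of 0.36 (0.28 to 0.44). When totals left out the 50 most abundant and the mitochondrial genes, the marrow mature gate stood above it. Under the same totals *Pkm* was higher past 2-fold in the immature than the azurophil gate. *Ldha* (ENSMUSG00000063229, chr7:46841475-46855627, + strand) encodes the subunit that favours lactate formation. It was highest in the azurophil gate at 420 CPM (408 to 432), followed by 263 CPM in the cycling and 344 CPM in the immature gate. With the 50 most abundant and the mitochondrial genes left out of totals, the immature gate stood above the azurophil gate for *Ldha*. The mature gates were at 274 CPM (253 to 297), 257 CPM (240 to 276) and 271 CPM (249 to 293) in marrow, blood and tendon, with overlapping intervals. *Ldha* took 87.9%, 90.1%, 98.0% and 99.8% of the UMIs of *Ldha* and *Ldhb*, the other main subunit, along the marrow gates, and 99.2% in tendon mature cells.

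Sequence shared with other annotated genes may limit some of these counts, to an extent that was not tested. In the last 500 bases of transcripts, 24.2% of the 31-base words of *Pkm* were also found in the closest other annotated gene, 11.1% for *Aldoa* and for *Pgk1*, 9.54% for *Ldha* and 0.426% for *Hk2*. *Slc2a1*, *Slc2a3*, *Hk3*, *Pfkl* and *Pfkfb3* shared none. Of the genes that shared words, those also among the counted genes numbered 0 for *Pkm* and *Ldha*, 1 for *Pgk1*, 2 for *Aldoa* and 61 for *Hk2*.

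The counts past 2-fold were read against those of all genes. From azurophil to immature gate, 1 of 10 members was higher past 2-fold beside 13.3% of all genes and 1 was lower beside 49.6%, with a median log2 ratio of 0.15 for the members and -0.98 for all 8012 genes. The steps between were from azurophil to cycling gate, with *Slc2a3* (2.35) the 1 of 9 higher beside 6.13% and *Pfkl* (-1.15) the 1 lower beside 30.9%, and from cycling to immature gate, with *Slc2a1* (1.73) and *Slc2a3* (1.59) the 2 of 10 higher beside 7.54% and 0 lower beside 24.8%. From immature to mature gate 1 of 10 was higher beside 11.2% and 0 were lower beside 14.8%. From marrow to blood mature gate 0 of 9 members passed in either direction, beside 3.28% higher and 1.41% lower. From blood to tendon mature gate 1 of 9 was higher beside 16.6% and 1 was lower beside 12.6%, and the medians were -0.25 for the members and -0.01 for all genes. The members as a list were therefore close to the background in this comparison, and the differences lay in single genes. For neutrophil-like cells without gates, *Slc2a1* (1.14, 0.87 to 1.42) and *Pfkfb3* (1.55, 1.17 to 1.93) were the 2 of 10 members higher in tendon than blood beside 13.8%, with 0 lower beside 14.6%. Both were within 2-fold without tendon cluster 4 (0.31 and 0.87) and when each cell was named by its own marker UMIs (0.65 and 0.78). From marrow to blood, *Slc2a1* (2.61) and *Slc2a3* (1.23) were higher beside 12.5% and *Hk2* (-1.03) was lower beside 38%, with *Slc2a3* at 0.87 by the mean of each cell's CPM and *Hk2* within 2-fold under 4 other settings, at -0.80 when each cell was named by its own marker UMIs.

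**Figure D3:**
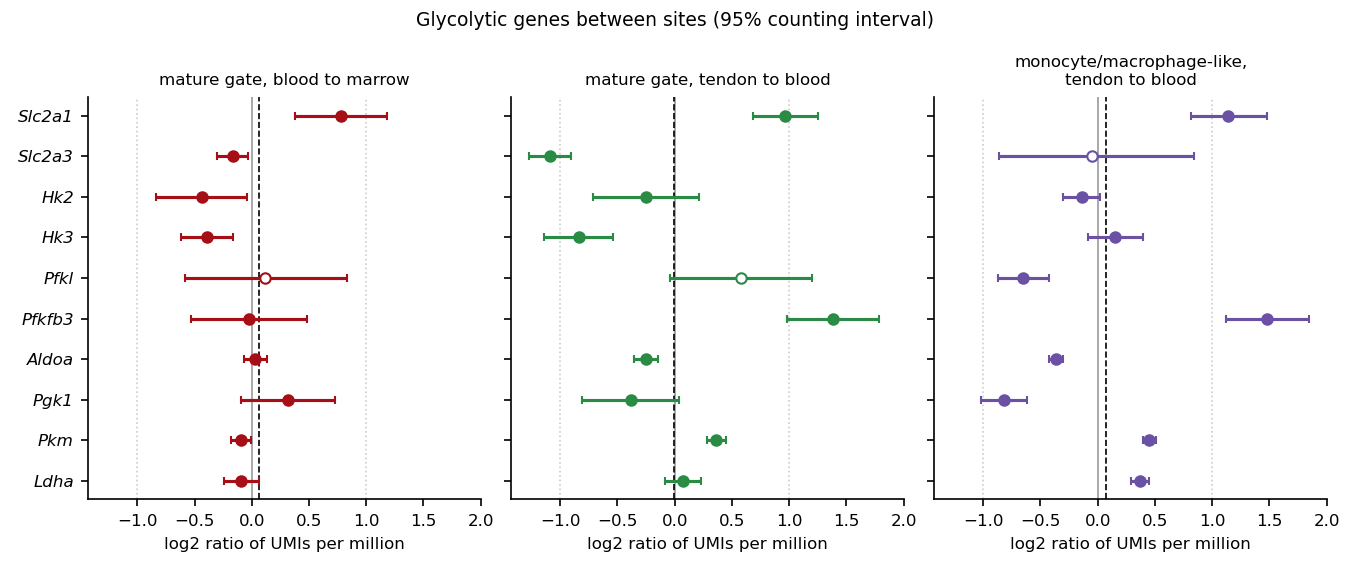
Log2 ratios of the 10 genes with 95% counting intervals for mature neutrophil-like cells of blood to marrow, of tendon to blood, and for monocyte/macrophage-like cells of tendon to blood. Dotted lines mark 2-fold, the dashed line the median of all genes, and open circles genes with under 100 UMIs. *Pfkfb3* lies beyond 2-fold in both tendon to blood panels, at 1.38 and 1.48.

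The tendon neutrophil-like cells fell into 2 clusters. Cluster 4 held 367 cells with a median of 4040 UMIs, led by *Acod1*, *G0s2* and *Trem1*. Cluster 17 held 193 cells with a median of 2615 UMIs, led by the cytokine genes *Il1a*, *Il23a* and *Cxcl3*. Neutrophil markers took 25.4% of UMIs in cluster 4 and 11.4% in cluster 17, and *Ly6g*, a neutrophil surface marker, was at 406 and 83.7 CPM. *Slc2a1* was at 124 CPM in cluster 4 and 61.4 CPM in cluster 17, a log2 ratio of -1.02 (-1.59 to -0.48), the 1 of 7 members lower past 2-fold beside 7.81% of all genes, with 0 higher beside 8.27%. *Slc2a3* was at 174 and 93.0 CPM (-0.90, -1.36 to -0.46). *Pfkfb3* (-0.84, -1.55 to -0.20) and *Hk3* (-0.81, -1.53 to -0.14) had ratios of the same sign. *Aldoa* was the other way at 467 CPM in cluster 4 and 703 CPM in cluster 17 (0.59, 0.41 to 0.77).

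Set beside blood mature cells, cluster 4 held *Slc2a1* (1.11, 0.81 to 1.40) and *Pfkfb3* (1.56, 1.15 to 1.98) past 2-fold higher, 2 of 9 members beside 14.3%, with 0 lower beside 11.4%. Cluster 17 held 0 of 9 members higher beside 18.8% and 2 lower beside 20.8%, *Slc2a3* (-1.78, -2.22 to -1.37) and *Hk3* (-1.39, -2.09 to -0.77). For *Pfkfb3* of tendon mature cells, passing 2-fold over blood thus rested on cluster 4. Without that cluster the mature-gate ratio to blood was 0.68, still higher but within 2-fold. Cluster 4 held 1706065 of the 2243633 UMIs of tendon neutrophil-like cells, so leaving it out removed most of the group. *Slc2a1* in cluster 17 was at 61.4 CPM (42.3 to 86.2), near blood mature cells at 57.7 CPM (49.6 to 66.7). Without cluster 17 the mature-gate *Slc2a1* ratio to blood was 1.16 and that of *Slc2a3* -0.92. The *Slc2a3* share of the transporter UMIs was alike at 58.3% in cluster 4 and 60.2% in cluster 17.

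The share of cells with at least 1 UMI gave the same order for the transporters once each cell was thinned to 1000 UMIs. For *Slc2a3* it was 28.0% in marrow, 25.6% in blood and 12.4% in tendon mature cells (93.0%, 82.2% and 33.1% unthinned). In tendon monocyte/macrophage-like cells, a class with almost no *Slc2a3*, the share was 0.150% thinned and 1.70% unthinned at a median of 12027 UMIs, beside 3492 UMIs for tendon neutrophil-like cells. For *Slc2a1* the thinned shares were 4.5%, 7.22% and 10.7% (27.0%, 36.9% and 32.1% unthinned). For *Pfkfb3* they were 3.5%, 1.39% and 6.58%. Without tendon cluster 4 the order of blood and tendon reversed for *Slc2a1*, at 7.22% and 6.70% thinned. Thinning left out 6 marrow, 3 blood and 21 tendon neutrophil-like cells with under 1000 UMIs.

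Across the 20 named groups of at least 50 cells, with unnamed and single clusters left out, the members differed in how far they varied (the heat map of levels by class and site). *Slc2a3* spanned 311-fold between its highest and lowest group, *Hk2* 131-fold, *Slc2a1* 55.5-fold and *Pfkl* 41.4-fold. *Aldoa* spanned 5.13-fold, *Pgk1* 5.89-fold, *Ldha* 10.9-fold, *Pkm* 12.2-fold and *Pfkfb3* 17.7-fold. The lowest group held 1 UMI for *Hk2* (blood NK-like, 1.08 CPM, 0.0274 to 6.02) and for *Pfkl* (Schwann-like, 1.35 CPM, 0.0341 to 7.51). The spans of *Hk2* and *Pfkl* therefore rest on 1 UMI at the low end. For *Pfkl* the next lowest group was the marrow immature gate at 9.59 CPM. *Hk3* had no UMI in 5 lymphoid or stromal groups, namely marrow and blood B-like, T-like, mural-like and Schwann-like cells, so no span was set. The limit that 3 UMIs would set was lowest in T-like cells, at 0.465 CPM. With the groups of a gene in order of level, most neighbours had overlapping intervals, from 12 of 19 neighbouring pairs for *Pkm* to 19 of 19 for *Pgk1*.

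Keratinocyte-like cells (185 tendon cells) were the highest of these groups for 5 members: *Slc2a1* at 152 CPM (144 to 161), *Pfkl* at 55.8 CPM, *Aldoa* at 667 CPM, *Pgk1* at 51.1 CPM and *Ldha* at 1056 CPM. *Hk2* was highest in the 685 mesenchymal-like cells of tendon at 142 CPM (137 to 146). The tendon mature gate was the highest group for *Pkm* and *Pfkfb3*, the marrow mature gate for *Slc2a3*, and the marrow immature gate for *Hk3*. For *Pkm* it was keratinocyte-like cells when no doublets were removed or when each cell was named by its own marker UMIs. With no doublets removed, muscle-like cells were highest for *Aldoa* and *Pgk1*. Without the 50 most abundant and the mitochondrial genes in totals, *Hk2* was highest in the marrow immature gate. There *Aldoa* and *Pkm* were highest in the marrow mature gate and *Pgk1* in the blood mature gate. The blood mature gate was also highest for *Aldoa* by the mean of each cell's CPM, and for *Slc2a3* under stricter cell filters. In all, 8 of 10 members had their highest level in a tendon group, and 4 of 10 when totals left out the 50 most abundant and the mitochondrial genes. No share of all genes is set beside these counts or that of keratinocyte-like cells, so they describe the members only. This order rests on the groups ranked, since some that were left out stood higher. Blood basophil/mast-like cells (34 cells) held *Hk2* at 310 CPM (241 to 392), tendon muscle-like cells (17 cells) held *Aldoa* at 961 CPM and *Pgk1* at 72.8 CPM, and unnamed tendon cluster 23, described below, held *Pkm* at 1320 CPM. *Slc2a1* was at 351 CPM in the 17 cells of unnamed tendon cluster 3, and *Pfkl* was at 90.3 CPM in blood cluster 13 (37 monocyte/macrophage-like cells). In blood, the 10 genes together took 0.0533% of UMIs in T-like and 0.0445% in B-like cells, beside 0.233% in blood mature neutrophil-like cells. *Ldha* was the 1 of 5 members past 2-fold between them, at 194 CPM in T-like and 96.7 CPM in B-like cells, beside 7.35% of all genes. NK-like cells of blood held *Slc2a3* at 53.0 CPM (39.2 to 70.0), above T-like cells at 9.14 CPM and B-like cells at 11.9 CPM.

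**Figure D4:**
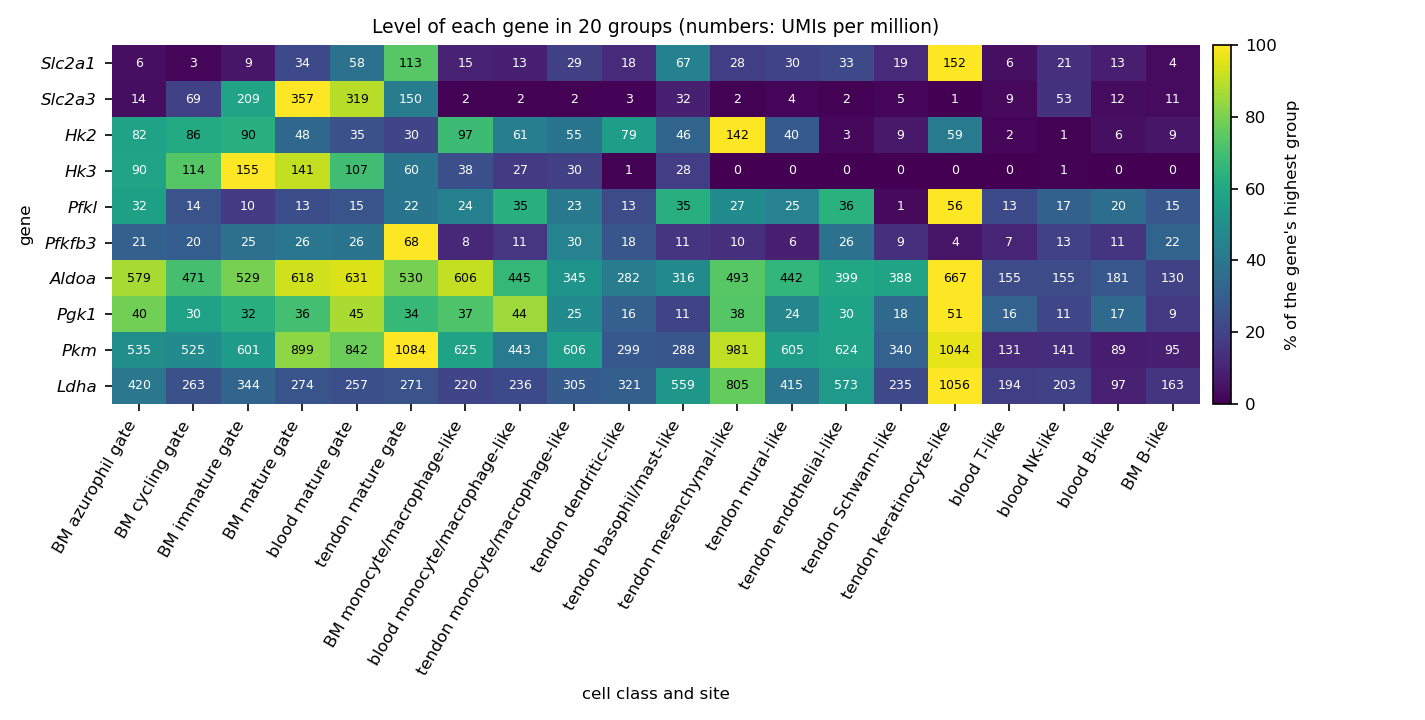
Level of each gene (number in the cell, UMIs per 1000000) in 20 groups of cells by class and site, coloured by the % of the gene's highest group. *Slc2a3* is brightest in the marrow mature gate at 357 CPM, *Hk3* in the marrow immature gate at 155 CPM and *Hk2* in mesenchymal-like cells at 142 CPM.

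Neutrophil-like cells differed from monocyte/macrophage-like cells of the same site most in *Slc2a3*. In tendon the latter (2056 cells) held 2.34 CPM of *Slc2a3* beside 154 CPM in the former, a 66.0-fold ratio (log2 6.04, 5.65 to 6.46). Of the 61 *Slc2a3* UMIs of the class, 30 were in the 62 cells of cluster 20, where neutrophil markers took 4.86% of UMIs, and without that cluster the ratio was 122-fold (6.93, 6.39 to 7.51). *Slc2a1* (1.91, 1.70 to 2.12), *Hk3* (1.12, 0.85 to 1.38) and *Pfkfb3* (1.20, 0.94 to 1.45) were also past 2-fold higher, so 4 of 10 members passed beside 9.52% of all genes, and 0 were lower beside 59.7%. The median log2 ratio was 0.71 for the members and -1.48 for all genes. The class leaves out unnamed tendon cluster 23, described below, whose share of monocyte/macrophage markers was near that of the class. Cluster 23 was above tendon neutrophil-like cells for *Hk2*, *Pfkl*, *Aldoa*, *Pgk1*, *Pkm* and *Ldha* (630 beside 283 CPM for *Ldha*). It was below them for *Slc2a1*, *Slc2a3*, *Hk3* and *Pfkfb3*. For tendon neutrophil-like cells against the monocyte/macrophage-like class, *Hk3* and *Pfkfb3* fell within 2-fold under some other settings. These log2 ratios were 0.41 and 0.53 when each cell was named by its own marker UMIs, and 0.47 and 0.52 without cluster 4.

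In blood the same 4 members were higher past 2-fold beside 10.5%, with *Slc2a3* at 6.87 (117-fold), *Hk3* at 1.97, *Slc2a1* at 1.91 and *Pfkfb3* at 1.13, and *Pfkl* was lower at -1.22 beside 45.7%. The *Pfkl* ratio rested on cluster 13 of the class, led by *Retnla*, *Alox15* and *Cd5l*, whose 37 cells held 101 of the 234 *Pfkl* UMIs. Without that cluster it was within 2-fold at -0.67 (-1.13 to -0.22), and the other 4 stayed past it. In marrow *Slc2a3* (6.29), *Hk3* (1.71) and *Pfkfb3* (1.58) were higher beside 8.08%, with 0 lower beside 27.5%, while *Slc2a1* was at -0.89 (-1.23 to -0.55). With the marrow mature gate alone in place of all marrow neutrophil-like cells, *Slc2a1* was at 1.16 (0.70 to 1.61), and 4 of 10 were higher beside 9.28% with *Hk2* lower at -1.03 beside 56.7%.

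Monocyte/macrophage-like cells showed some of the same differences between blood and tendon as neutrophil-like cells. The 2 classes leave out unnamed blood cluster 10 (115 cells) and unnamed tendon clusters 1 (251 cells) and 23 (283 cells). Monocyte/macrophage was the best matching marker list of each, and *Slc2a1* was at 72.9 CPM in cluster 23. Ratios with these clusters added were not tested. *Slc2a1* was at 13.2 CPM (10.5 to 16.2) in the blood class and 29.0 CPM (27.0 to 31.2) in the tendon class (log2 ratio 1.14, 0.82 to 1.48, and 0.99 either with finer clusters or without blood cluster 13). *Pfkfb3* was at 10.7 CPM (8.39 to 13.5) and 29.9 CPM (27.8 to 32.0), a log2 ratio of 1.48 (1.12 to 1.85). These were the 2 of 9 members past 2-fold higher beside 17.2% of all genes, and 0 were lower beside 8.91%. *Pgk1* (-0.82, -1.02 to -0.61) and *Pfkl* (-0.65, -0.87 to -0.43) were lower within 2-fold, and *Slc2a3* had too few UMIs to count. Without blood cluster 13 the *Pfkl* ratio was -0.11 (-0.38 to 0.18), that of *Pgk1* was -0.99 (-1.20 to -0.78) and that of *Ldha* was 0.68 in place of 0.37. Marrow cells of the class held *Slc2a1* at 15.1 CPM and *Pfkfb3* at 7.55 CPM, near the blood levels.

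Mesenchymal-like cells of tendon, the stromal class with collagen genes, held a different set. Relative to them neutrophil-like cells were higher past 2-fold in *Hk3* (log2 ratio 7.53, on 9 mesenchymal UMIs), *Slc2a3* (5.99), *Pfkfb3* (2.85) and *Slc2a1* (1.95), 4 of 10 members beside 14%. They were lower in *Hk2* (-2.18, -2.55 to -1.84) and *Ldha* (-1.51, -1.62 to -1.39), 2 of 10 beside 63.6%, with *Ldha* at -0.69 when each cell was named by its own marker UMIs. Mesenchymal-like cells held *Ldha* at 805 CPM, and *Ldha* (1.40) and *Hk2* (1.37) were the 2 members past 2-fold above the monocyte/macrophage-like class beside 26.1%, with *Hk3* (-6.41) and *Pfkfb3* (-1.65) lower beside 19.6%. Within this class, cluster 2 (393 cells, led by *Cxcl5*, *Crabp1* and *Ptx3*) held *Pkm* at 1141 CPM and cluster 18 (253 cells, led by *Sfrp2*, *Clec3b* and *Aspn*) at 541 CPM. That log2 ratio of 1.08 (1.03 to 1.13) made *Pkm* the 1 of 8 members past 2-fold beside 8.24%, with 0 lower beside 7.41%. *Ldha* followed at 0.93 (0.88 to 0.99), and *Hk2* went the other way at -0.59 (-0.69 to -0.49).

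The members were also high together in tendon cluster 23 (283 cells), where they took 0.307% of UMIs beside 0.145% in the named monocyte/macrophage-like class. This cluster was led by *Arg1*, *Ppbp* and *Rnf128*, with *Spp1* and *Pf4* among its leading genes, and was left without a cell type name because 2 platelet markers (*Ppbp*, *Pf4*) and 1 macrophage marker (*Arg1*) were among its 10 leading genes. Monocyte/macrophage markers took 3.27% of its UMIs, beside 3.44% in the named monocyte/macrophage-like class, and *Lyz2* was at 8410, *Csf1r* at 266 and *Adgre1* at 248 CPM. The platelet integrin *Itga2b* was at 0.245 CPM and *Gp9* had no UMI. Against the 2056 named cells, 6 of 9 members were higher past 2-fold beside 2.18% of 9304 genes, and 0 were lower beside 6.84%. The median log2 ratio was 1.08 for the members and -0.08 for all genes.

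*Slc2a1* was at 72.9 CPM in cluster 23 and 29.0 CPM in the named class (1.33, 1.13 to 1.52). The enzyme genes followed with *Pfkl* at 52.1 and 22.5 CPM (1.21), *Aldoa* at 785 and 345 CPM (1.18), *Pkm* at 1320 and 606 CPM (1.12), *Pgk1* at 52.1 and 24.7 CPM (1.08) and *Ldha* at 630 and 305 CPM (1.05). *Hk3* (0.91) and *Hk2* (0.40) were higher within 2-fold, and *Pfkfb3* was at -0.26 (-0.57 to 0.04). For 7 members cluster 23 was above each of the 8 named monocyte/macrophage-like clusters, and for 6 its interval lay above all of theirs (the plot of tendon macrophage clusters). How many of all genes stood above every one of these clusters is not given, so both counts describe the members only. The nearest of these was mostly cluster 8, led by the osteoclast genes *Atp6v0d2*, *Ctsk* and *Acp5*, with *Ldha* at 487, *Pkm* at 770 and *Aldoa* at 472 CPM. In 62 cells of named cluster 20, neutrophil markers took 4.86% of UMIs and *Slc2a3* was at 17.8 CPM, the highest of the 8 clusters.

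**Figure D5:**
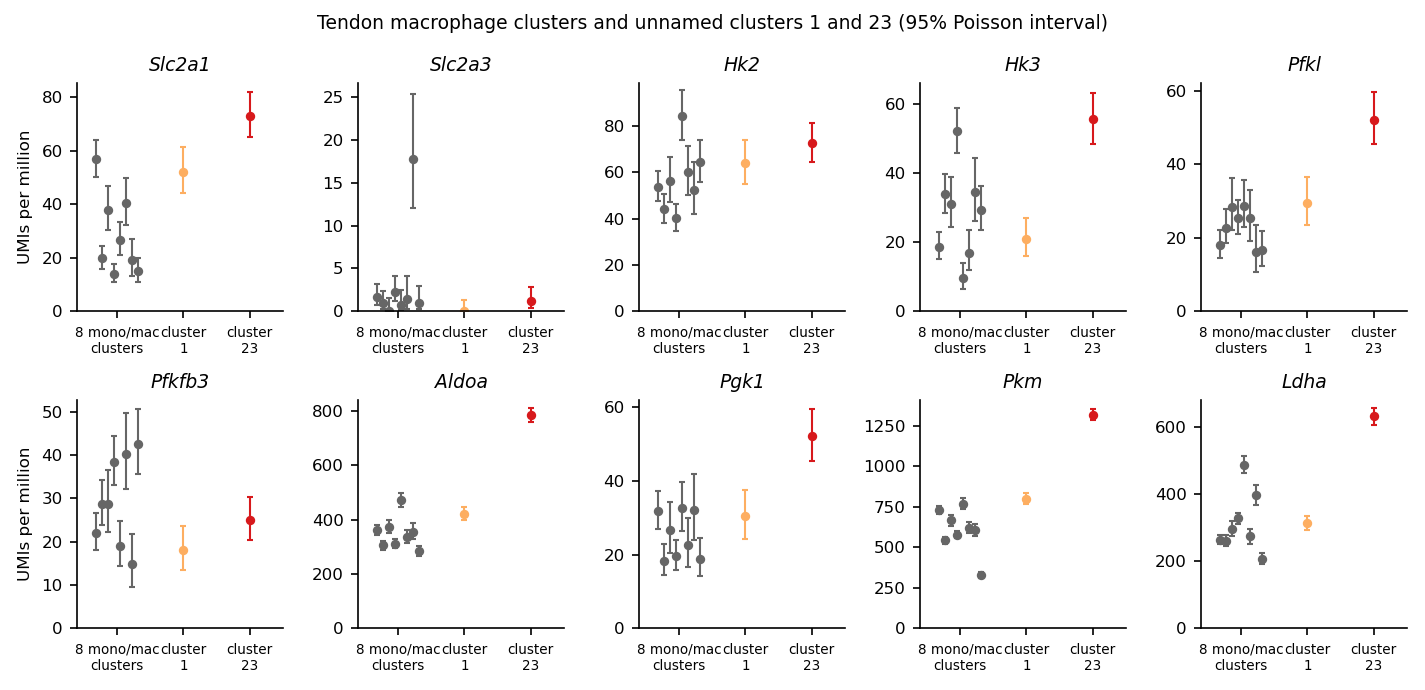
Level of each gene (UMIs per 1000000, axis from 0, 95% Poisson intervals) in the 8 named monocyte/macrophage-like clusters of tendon and in the unnamed clusters 1 and 23. Cluster 23 lies above all 8 for 7 genes, among them *Pkm* at 1320 CPM beside at most 770 CPM.

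The other genes of glucose metabolism, 67 in 6 lists, were followed in the same comparisons. In cluster 23, 8 of 44 with enough UMIs were higher past 2-fold than in the named class beside 2.18% of all genes, and *Pygm*, muscle glycogen phosphorylase, was the 1 lower at -1.03 beside 6.84%. Those with the largest ratios were *Gys1* (1.51), glycogen synthase, the glycolytic mutase *Pgam1* (1.32), triose phosphate isomerase *Tpi1* (1.27) and the sugar phosphate exchanger *Slc37a2* (1.24). From blood to tendon mature gate, 3 of 23 were higher beside 16.6% of all genes: *Pfkp* (2.14), the lactate transporter partner *Bsg* (1.57) and the lactate exporter *Slc16a3* (1.12). *Slc16a3* stood at 319, 362 and 786 CPM in the mature gates of marrow, blood and tendon. Lower past 2-fold were 6 of 23 beside 12.6%. The largest were *G6pdx* (-1.64), the first enzyme of the pentose phosphate branch, and *Tkt* (-1.54), transketolase of the same branch. *Pfkfb4* (-1.20), a relative of *Pfkfb3*, and *Pygl* (-1.16), a glycogen phosphorylase, followed. The median of the 23 was -0.34 beside -0.01 for all genes.

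Along marrow maturation, *Slc2a6*, a transporter of the same family as the members, was past 2-fold higher in the mature than the immature gate (3.60), as were *Slc16a3* (1.56) and *Pfkfb4* (1.09), 3 of 31 in all beside 11.2% of all genes. Lower were 5 of 31 beside 14.8%, led by *Rpe* (-2.25), *Gys1* (-2.15), *Pgls* (-1.93) and *H6pd* (-1.84). From azurophil to immature gate 5 of 37 were higher beside 13.3%, led by *Pygl* (2.20), *G6pdx* (2.02), *Slc16a3* (1.98) and *Pfkfb4* (1.76). In the other direction 16 of 37 were lower beside 49.6%, led by the lactate carrier *Slc16a1* (-6.08), *G6pc3* (-5.33), *Pdk1* (-5.15) and *Fbp1* (-3.99). In monocyte/macrophage-like cells of tendon to blood, 8 of 44 were higher beside 17.2%, with *Slc37a2* at 4.42, *Slc16a1* at 3.52, *Slc2a8* at 1.46 and *Pygm* with 157 UMIs in tendon and 1 in blood. There 5 were lower beside 8.91%, led by *Pygl* (-2.42), *Slc2a6* (-2.39), *Rpia* (-1.62) and *Taldo1* (-1.37). Between neutrophil-like cells and monocyte/macrophage-like cells of tendon, 7 of 43 were higher beside 9.52%, led by *Slc2a6* (3.57), *Slc16a3* (3.56), *Pygl* (3.23) and *Pfkfb4* (2.07), and 15 were lower beside 59.7%. Relative to mesenchymal-like cells 10 of 42 were higher beside 14%, led by *Slc2a6* (7.05), *Pygl* (4.57), *Pfkfb4* (4.47) and *Slc16a3* (4.14), and 19 were lower beside 63.6%, *Slc16a1* at -5.65 among them.

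The genes most like each member over the 20 groups were found among 13587 genes by Pearson's r of log2(CPM + 1), as a description only, since the groups share libraries and depth. *Slc2a3* was most like *Ly6g* (r = 0.88), *Gm14703* (0.88) and *Pip5k1b* (0.87). *Hk3* was most like *Pilrb2* (0.95), *Alox5* (0.94) and *Trem3* (0.94). *Aldoa* and *Pkm* were most like each other (0.94), followed by *Gapdh* for both (0.89 and 0.90), and *Pgk1* was most like *Aldoa* (0.87). *Gapdh* shares 67.3% of its terminal words with another annotated gene, so its counts are uncertain. *Slc2a1* was led by *Plk3* (0.85), *Hk2* by *Pla2g4a* (0.88), *Pfkl* by *Ripk3* (0.83), *Pfkfb3* by *Il18bp* (0.80) and *Ldha* by *Cd34* (0.82). Between members of a pair, r was 0.03 for *Slc2a1* with *Slc2a3* and 0.55 for *Hk2* with *Hk3*.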

How the data were processed

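The deposited values are raw UMI counts of each gene in each cell, which the authors made for 1 bone marrow, 1 blood and 1 tendon injury site library (10x 3′ v3 kit). The counter was Cell Ranger 5.0.1 per the file headers, on mm10 per the labels. Cells with fewer than 200 genes or over 20% mitochondrial UMIs were left out (15 marrow, 57 blood, 651 tendon). Automatic doublet calls marked 1, 32 and 6 cells, so the cells with the highest Scrublet scores were removed at 0.8% per 1000 cells (27, 38, 198).

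Each library was clustered in scanpy 1.11.5 (2000 variable genes without the 77 metabolic genes, 30 components, 15 neighbours, Leiden resolution 1, igraph 0.11.9) with scikit-learn 1.9.0. Sums and intervals used Python 3.11.15 with pandas 2.3.3, scipy 1.17.1 and numpy 2.4.6, and plots matplotlib 3.10.9. A cluster was named from at least 3 markers among its 100 leading genes, by a rule settled after the clusters had been seen. Names were rebuilt here, so shares may differ from the study's. Unnamed clusters were left out of classes: 137 marrow, 115 blood and 551 tendon cells.

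Neutrophil-like cells thinned to 1000 UMIs were gated in order: azurophil at 5 UMIs or more of *Elane*, *Mpo*, *Prtn3* and *Ctsg*, cycling at 4 of a cell cycle list, immature at 10 of *Camp*, *Ngp* and *Ltf*, otherwise mature. Counts were summed per group and divided by all its UMIs. The members and lists were chosen with earlier results of these data known. Named genes are all 10 members, the 4 largest ratios in each direction past 2-fold in the pathway lists, and the 3 genes most like each member. The comparisons of single clusters, and those with monocyte/macrophage-like cells outside tendon, were added after the clusters had been seen. Intervals were tested on simulated data. No p-value is given with 1 library per site. Positions are from GENCODE M21 (GRCm38). The alternatives tried were filters, doublets, clustering, naming, totals, gates, thinning, count minimums and the fold.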

Additional observations from a re-analysis of the deposited data

Results flagged for a closer look

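Neutrophil-like cells set against monocyte/macrophage-like cells gave ratios that went opposite ways in marrow and at the other sites for 3 of the 10 genes, with 1 library per site and no test of the difference. The share of all genes that changed sign in this way is not given, so the count describes the members only. The median log2 ratio of all genes was -0.60 in marrow, -0.86 in blood and -1.48 in tendon. For *Slc2a1* the log2 ratio was -0.89 in marrow, 1.91 in blood and 1.91 in tendon, so it differed by 2.80 between marrow and blood and by 2.81 between marrow and tendon. For *Pkm* it was -0.11, 0.82 and 0.82, a difference of 0.93 in each case. For *Aldoa* it was -0.18, 0.42 and 0.60, differences of 0.60 and 0.78. Marrow neutrophil-like cells were mostly in the gates before maturity, with 200 of 1286 in the mature gate. With the marrow mature gate alone, *Slc2a1* at 1.16 and *Pkm* at 0.53 had the sign of blood and tendon, and *Aldoa* was at 0.03 (-0.06 to 0.12).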

How the results depend on the processing

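No paired analysis was possible because the labels give 1 library per site and no replicate numbers, and for the same reason no replicate was left out. Of 1300 member ratios recomputed under 16 planned and 5 added settings, the latter chosen after seeing the data, 1096 moved by less than their counting interval and 204 by more, and 49 calls changed. No ratio past 2-fold changed sign, and 305 of 328 recomputations of the 22 ratios past 2-fold stayed past it. The cause of the changes below was not tested, apart from settings that drop genes or cells by construction.

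The number of members higher past 2-fold moved as follows. The share of all genes under each changed setting is not given, so these counts describe the members only. With a minimum of 500 UMIs it went from 1 to 0 for mature to immature gate and for tendon to blood mature gate, from 2 to 0 for neutrophil-like cells of tendon to blood, from 2 to 1 for those of blood to marrow, and from 4 to 1 for neutrophil-like to mesenchymal-like cells. At a log2 limit of 0.5 it was 3 for immature to azurophil, 3 for mature to immature, 1 for blood to marrow and 2 for tendon to blood mature gates. With totals without the 50 most abundant and mitochondrial genes, the median of all genes moved by 0.92 for immature to azurophil. The count there was 6 (*Slc2a1*, *Slc2a3*, *Hk2*, *Hk3*, *Pfkfb3* and *Pkm*). Under the same totals it was 1 for neutrophil-like cells of tendon to blood, and 4 members had their highest level in a tendon group. With each cell named by its marker UMIs it was 0 for neutrophil-like cells of tendon to blood and 2 for neutrophil-like to monocyte/macrophage-like cells. With the mean of each cell's CPM it was 1 for tendon to blood, and also 1 for blood to marrow, without gates. Leiden resolution 2, and also leaving out blood cluster 13, gave 1 for monocyte/macrophage-like cells of tendon to blood, and doubled gate thresholds gave 2 for tendon to blood mature gate. Without tendon cluster 17 that count was 2, without cluster 4 it was 0, and without cluster 4 the ungated count was 0. Without cluster 4, ungated *Slc2a1* and *Pfkfb3* were at 0.31 and 0.87. Depth limits *Pfkl* and *Hk2* most, with 47 and 64 UMIs in the tendon mature gate.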
